A study of Schizosaccharomyces pombe with 2 samples.

Results

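The histone genes of fission yeast supply the H3 that carries dimethylated lysine 9, the mark that was immunoprecipitated in this series. The genes examined here are the core histone and H2A.Z genes of S. pombe, 10 of the 5123 nuclear protein-coding genes in the annotation that the authors deposited. They were chosen by name: hht1+, hht2+, and hht3+ for H3, hhf1+, hhf2+, and hhf3+ for H4, hta1+ and hta2+ for H2A, htb1+ for H2B, and pht1+ for the variant H2A.Z. Each name matched 1 annotated gene, and the product given in the annotation was the histone named in all cases. The series holds 2 ChIP-seq libraries, replicates 1 and 2, both from swi6Δ cells cultured in YES medium and both made with a monoclonal antibody to H3K9me2. Swi6 is an HP1 protein that binds methylated H3K9, and swi6Δ is the only genotype in this set. The processed file is a genome annotation in which the score field was empty in all 33839 lines. It therefore holds positions and no enrichment, so that H3K9me2 at the histone genes was not measured here, the depth of the libraries is unknown, and the values below carry no replicate error. No samples were compared and no test was made. Counts over the histone genes are set beside the same counts over all coding genes as a description.

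Nucleosomes wrap DNA around an octamer of H2A, H2B, H3, and H4, and the tail of H3 is the substrate of the methyltransferase Clr4, the only enzyme that methylates H3K9 in S. pombe. Most histone is made in S phase, when new nucleosomes are assembled behind the replication fork. In S. pombe, transcription of most core histone genes rises at that time and involves Ams2, a GATA-type factor. It also involves a promoter element with the letters AACCCT, known as the histone or AACCCT box. Whether each gene examined here rises in S phase or depends on Ams2 was not measured. H2A.Z replaces H2A in a subset of nucleosomes, is placed there by the Swr1 remodeling complex, and can be made outside S phase.

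The codon for lysine 9 of H3 was located in each of the H3 genes, since this residue carries the mark that defines the series. Lysine 9 of the mature protein is codon 10 of the reading frame, as the initiator methionine is removed. The first 30 coding bases of each gene are shown 5′ to 3′ on the strand of the gene, from the ASM294v3 reference sequence, with the codon for lysine 9 in capitals. For hht1+ they lie at chr1:4699829-4699858 (plus strand), for hht2+ at chr2:1365158-1365187 (plus strand), and for hht3+ at chr2:3529500-3529529 (minus strand).
hht1+: atggctcgtactaaacaaacagctcgtAAG
hht2+: atggctcgtaccaagcaaactgctcgtAAA
hht3+: atggctcgtactaagcaaactgcacgtAAA
Lysine 9 is thus encoded by AAG in hht1+ and by AAA in hht2+ and hht3+, with the codon at 4699856 to 4699858, 1365185 to 1365187, and 3529500 to 3529502, respectively. At lysine 4 the usage was the reverse, AAA in hht1+ and AAG in the other genes. Of the 13 lysine codons of H3, 9 were the same in all 3 genes, and the remaining differences lay at lysine 64, where only hht2+ has AAA, and at lysine 115, where only hht1+ has AAA. AAG was the more frequent lysine codon of each H3 gene, with 11 of 13 in hht1+ and hht2+ and 12 of 13 in hht3+. Over all coding genes, AAG made up 37.4% of lysine codons.

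A tandem copy of the AACCCT box was found at every locus of the core histone genes. The 9 core histone genes lie at 5 loci, 4 divergent pairs and hta2+ on its own, and each locus held 1 copy of the 12-base tandem within the 500 bases before a first coding base. Around it, 17 bases were the same at all 5 loci except for the base at 1 position, which was A or C, giving the shared core ATCANAACCCTAACCCT. The 30 bases around the core of the 3 H3–H4 pairs and of hta2+ are shown 5′ to 3′ on the strand that reads AACCCT, with the core in capitals, as the likeness between the loci is best seen from the letters. They lie at chr1:4699641-4699670 (plus strand) between hhf1+ and hht1+, chr2:1365054-1365083 (minus strand) between hhf2+ and hht2+, chr2:3529616-3529645 (plus strand) between hht3+ and hhf3+, and chr1:4053365-4053394 (minus strand) before hta2+.
hhf1+–hht1+: atctgcATCAAAACCCTAACCCTgcttttg
hhf2+–hht2+: tcagtcaATCACAACCCTAACCCTgattta
hht3+–hhf3+: actttgATCACAACCCTAACCCTttaatta
hta2+: aacatccATCAAAACCCTAACCCTgtatat
The bases directly before and after the core differed between loci, which is where the core was taken to end. A search of the 3 chromosomes on both strands found the shared core at 6 places, the 5 histone loci and 1 other. The histone loci had to match, since the core was defined from them, so only the other place is informative. The other was at 2106952 to 2106968 of chromosome 1, in the annotated 5′ UTR of SPAC631.02, a predicted bromodomain protein, 971 bases before the first coding base. This gene was singled out only after the match was seen. The 12-base tandem alone occurred at 19 places, 14 of them elsewhere, and the single box AACCCT at 4303 places.

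The match upstream of the core histone genes set them apart from pht1+, and the rarity of the match depended on how many letters were required. A single AACCCT on either strand within 500 bases, up to the next coding sequence, was present before 9 of the 10 histone genes, the exception being pht1+, and before 14.0% of all coding genes (719 of 5123). The 12-base tandem was present before the same 9 histone genes and before 0.351% of all coding genes. The latter are 18 genes with the 9 histone genes among them. The tandem was searched for only after the data had been seen, so this contrast is a description and no independent support. Both genes of a divergent pair read the same upstream bases, so the 9 genes stand for 5 sites. Before pht1+, no AACCCT was found in the whole 2260 bases up to the next coding sequence. A match is a description of letters, and binding of a factor was not measured.

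The core read in the direction of the H3 gene in 1 of the H3–H4 pairs and in the direction of the H4 gene in the others. It pointed toward hht1+, hhf2+, and hhf3+ in pairs 1, 2, and 3, toward hta1+ rather than htb1+ in the H2A–H2B pair, and toward hta2+ at its own locus. Measured to the first coding base, it lay between 81 bases (hht2+) and 377 bases (hta1+) away, with a median of 165 over the 9 genes. By this measure, the core was nearer to the H3 gene in all 3 H3–H4 pairs. The distances were 165 against 250 bases for hht1+ and hhf1+, 81 against 236 for hht2+ and hhf2+, and 92 against 128 for hht3+ and hhf3+. The core was also nearer to htb1+ (167 bases) than to hta1+ in the H2A–H2B pair.

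**Figure D1:**
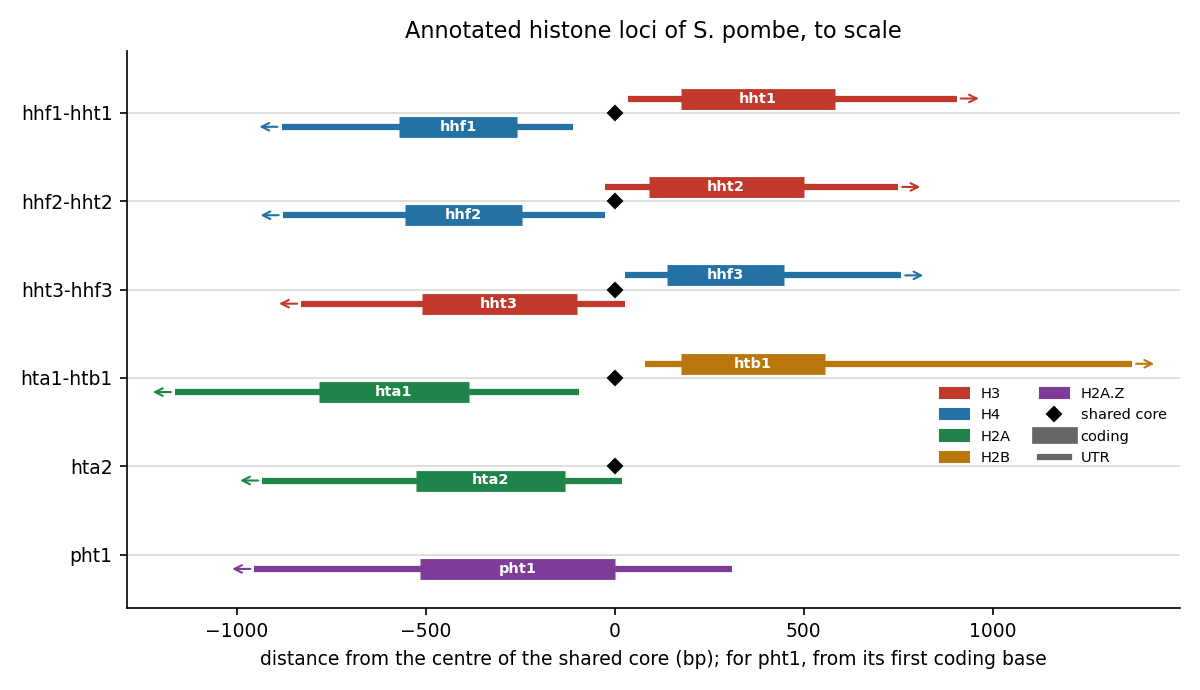
Gene models of the 6 histone loci drawn to scale, with the distance in bp from the centre of the shared core (black diamond) on the horizontal axis, or from the first coding base for pht1+, which has no core. Thick bars are coding sequence, thin bars UTRs, and arrows the direction of transcription, with plus-strand genes above each line. In the 4 pairs the genes point away from each other with the core between their coding sequences.

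Whether the core lies before or inside the mRNA depended on which annotation placed the mRNA start. In the deposited annotation it lay inside a 5′ UTR at 3 of 5 loci, ending at base 36 of the hht2+ mRNA, at base 36 of that of hht3+, and at base 27 of that of hta2+. In the RefSeq annotation of the same ASM294v3 sequence it lay inside a 5′ UTR at 0 of 5 loci, and preceded the mRNA start by 42 (hht2+ and htb1+) to 128 bases (hhf3+), with a median of 56. The RefSeq mRNA of hhf3+ begins at its first coding base and so has no 5′ UTR there, which makes 128 the distance to the coding start. Which gene of an H3–H4 pair lay nearer to the core also depended on the start used. By RefSeq mRNA starts it was hhf1+ (47 bases against 68 for hht1+), hht2+ (42 against 75 for hhf2+), and hht3+ (56 against 128). By deposited mRNA starts, the core lay 27 bases before hht1+ and 102 before hhf1+. It lay 16 bases before hhf2+ and 18 before hhf3+, but inside the mRNAs of hht2+ and hht3+. RefSeq placed the mRNA start further downstream in 8 of the 10 histone genes, by 24 bases in pht1+ to 110 in hhf3+, and further upstream in 2, by 55 bases in hhf1+ and 28 in htb1+. The mRNA 3′ end was the same in all 10 genes.

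**Figure D2:**
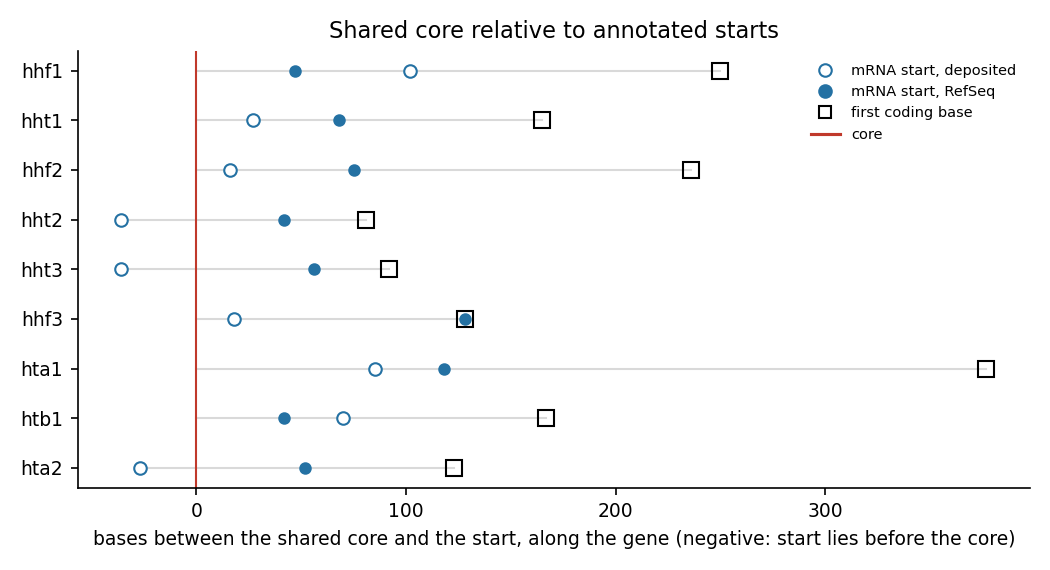
Bases from the shared core (red line) to the mRNA start of the deposited annotation (open circles), the mRNA start of RefSeq (filled circles), and the first coding base (squares) for the 9 genes that have the core. Open circles to the left of the line, for hht2+, hht3+, and hta2+, are starts that lie before the core, and all filled circles lie to the right, from 42 to 128 bases.

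The H3 genes each lay back to back with an H4 gene, and hta1+ lay back to back with htb1+. The gene for the other H2A, hta2+, had no histone gene as its neighbor. It followed rsd1+ (SPAC19G12.07c), a predicted RNA-binding protein, on the same strand. The next coding gene upstream of pht1+ was shy1+ (SPBC1215.01), a predicted protein of the SURF family, on the opposite strand, with 2260 bases between the coding sequences, and the tRNA gene SPBTRNATHR.06, also on the opposite strand, lay between them. Of the 10 histone genes, 8 had another histone gene as divergent neighbor and 9 had a divergent coding neighbor of any kind, against 54.9% of all coding genes.

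The gap between the paired coding sequences was short. On chromosome 1, hhf1+ (SPAC1834.03c) and hht1+ (SPAC1834.04) were 432 bases apart between their first coding bases, 4699396 and 4699829. On chromosome 2, hhf2+ (SPBC8D2.03c) and hht2+ (SPBC8D2.04) were 334 bases apart, between 1364823 and 1365158. Pair 3, hht3+ (SPBC1105.11c) and hhf3+ (SPBC1105.12), also on chromosome 2, had the narrowest gap, 237 bases, between 3529529 and 3529767. The H2A–H2B pair on chromosome 3, hta1+ (SPCC622.08c) and htb1+ (SPCC622.09), had the widest, 561 bases, between 1411922 and 1412484. All 4 gaps fell below the lower quartile of the 1401 pairs of divergent coding neighbors in the genome, which was 590 bases, with a median of 1022 and an upper quartile of 1642. The share of those pairs with a shorter gap was 5.78% for hht3+–hhf3+, 11.1% for hhf2+–hht2+, 15.7% for hhf1+–hht1+, and 23.5% for hta1+–htb1+.

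**Figure D3:**
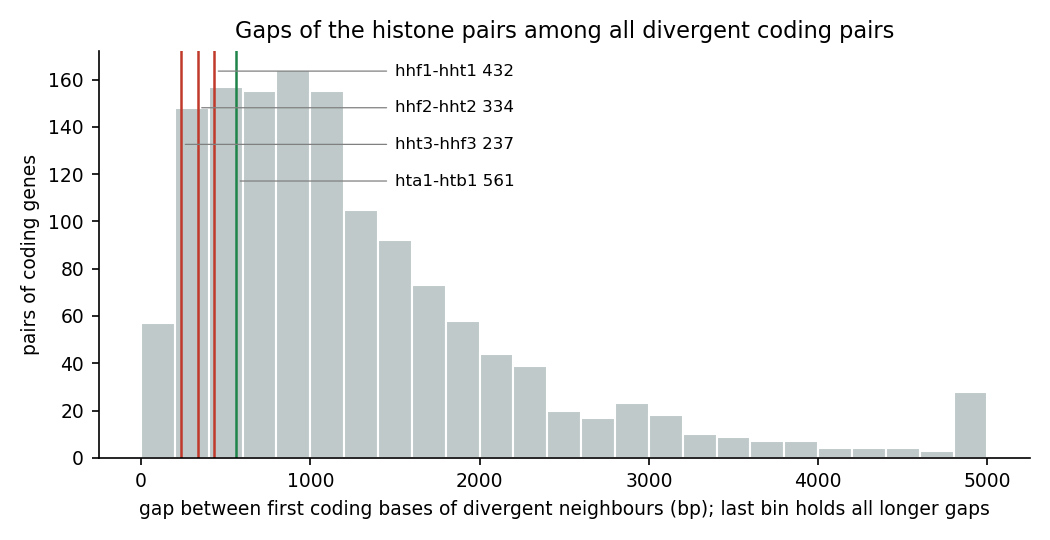
Distribution of the gap in bp between first coding bases over the 1401 pairs of divergent coding neighbors, in bins of 200 bp with all longer gaps in the last bin. Vertical lines mark the 3 H3–H4 pairs (red, 237, 334, and 432 bp) and the H2A–H2B pair (green, 561 bp), all below the median of 1022 bp.

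Between deposited mRNA starts the pairs separated into abutting and spaced loci. The deposited mRNAs of hhf2+ and hht2+ overlapped by 3 bases and those of hht3+ and hhf3+ by 1 base, whereas 146 bases separated hhf1+ from hht1+ and 172 separated hta1+ from htb1+. Among all divergent coding pairs, 220 of 1401 had overlapping mRNAs, the lower quartile of the gap was 95 bases, and the median was 510 bases. The gaps of hhf1+–hht1+ and hta1+–htb1+ thus lay above the lower quartile, with 30.3% and 32.2% of pairs having a shorter gap. For hhf2+–hht2+ and hht3+–hhf3+ the shares were 15.2% and 15.5%. With RefSeq starts no histone pair overlapped, and the gaps in the same order as listed here were 134, 201, 132, and 177 bases. The overlap in pairs 2 and 3 is therefore a property of the deposited mRNA starts. The RefSeq gap of 201 bases in pair 3 runs to the first coding base of hhf3+, as its RefSeq mRNA begins there. From one mRNA end to the other, the H3–H4 loci spanned 1788 bp (pair 1), 1630 bp (pair 2), and 1589 bp (pair 3), and the H2A–H2B locus 2534 bp.

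None of the histone genes was interrupted. The coding sequence of each was a single segment with no intron line, while 46.6% of all coding genes had more than 1 coding segment. Intron lines themselves were given for only 10.1% of coding genes, so they are the poorer measure of the background. The coding lengths were 411 bp in the 3 H3 genes, 312 bp in the 3 H4 genes, 399 bp in hta1+, 396 bp in hta2+, 381 bp in htb1+, and 516 bp in pht1+. The median was 397.5 bp for the histone genes and 1137 bp for all coding genes, and 5.09% (H4) to 16.7% (pht1+) of coding genes had a shorter coding sequence. Coding sequence made up between 29.5% (htb1+) and 52.8% (hht2+) of the mRNA.

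The untranslated regions were not uniformly short. In the deposited annotation, the 5′ UTRs ranged from 97 bp in htb1+ to 311 bp in pht1+, with a median of 143 bp, against 173 bp over the 4695 coding genes with a 5′ UTR line. They were 138, 117, and 128 bp in hht1+, hht2+, and hht3+, and 148, 220, and 110 bp in hhf1+, hhf2+, and hhf3+. With 292 bp, that of hta1+ was longer than that of hta2+ at 150 bp. These lengths depended on the annotation. With RefSeq starts they were 97, 39, and 36 bp in the H3 genes, 203, 161, and 0 bp in the H4 genes, 259 and 71 bp in hta1+ and hta2+, and 125 bp in htb1+. The 3′ UTRs had a median of 322 bp, against 262.5 bp over 4750 coding genes. They lay within 250 to 323 bp in all 6 H3 and H4 genes, and were longer in hta1+ (380 bp), hta2+ (406 bp), and pht1+ (439 bp). By far the longest was that of htb1+, 813 bp, a length that 88.1% of coding genes with a 3′ UTR line did not reach. The 3′ UTR of the H2B gene was thus longer than its coding sequence.

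**Figure D4:**
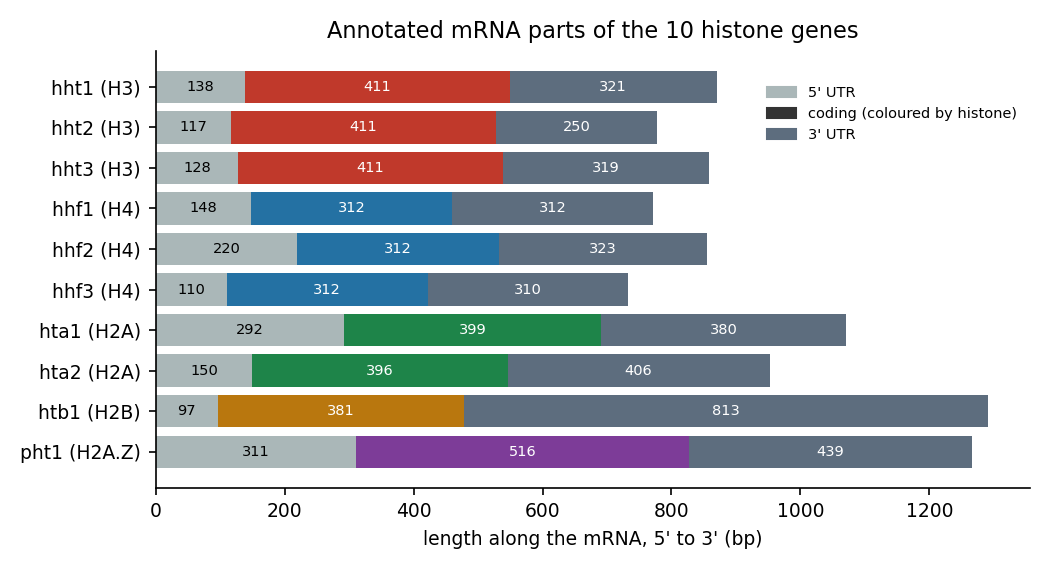
Lengths in bp of the 5′ UTR (light gray), coding sequence (colored by histone), and 3′ UTR (dark gray) of the 10 histone genes in the deposited annotation. The 3′ UTRs of the H3 and H4 genes lie within 250 to 323 bp, and that of htb1+ is 813 bp.

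The long htb1+ mRNA reached into the gene behind it. Its last 258 bases overlapped the mRNA of SPCC622.10c, the predicted exocyst subunit Sec5, which converges on it from the other strand. The mRNA of hht3+ overlapped that of rav1+ (SPBC1105.10), a subunit of the RAVE complex, by 46 bases in the same way. These were the only histone genes of which the annotated mRNA met that of the next coding gene downstream, 2 of 10 against 41.3% of all coding genes. The downstream gene lay on the opposite strand for 8 of the 10, against 54.4%. Apart from the genes just named, these were sfi1+ (SPBC8D2.05c, a spindle pole body protein) after hht2+, aro1+ (SPAC1834.02, a predicted enzyme of aromatic amino acid synthesis) after hhf1+, SPBC1105.13c (a sequence orphan) after hhf3+, SPCC622.07 (listed as dubious) after hta1+, SPAC19G12.05 (a predicted mitochondrial citrate transporter) after hta2+, and cdc2+ (SPBC11B10.09, the cyclin-dependent kinase that drives the cell cycle) after pht1+. The exceptions were hht1+, followed by alg9+ (SPAC1834.05, a predicted mannosyltransferase), and hhf2+, followed by SPBC8D2.02c (a predicted vacuolar sorting protein). The shortest gap between mRNAs that did not overlap was that between pht1+ and cdc2+, 107 bases.

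Antisense transcripts were annotated over the entire coding sequence of 2 histone genes, hhf3+ and hta1+, as they were for 6.25% of all coding genes. A noncoding RNA on either strand over at least 1 coding base was annotated for the same 2 histone genes and for 15.9% of all coding genes. SPNCRNA.1611 (1380 bp, 3529599 to 3530978 of chromosome 2) covered all 312 coding bases of hhf3+ on the other strand and ran 59 bases into the 5′ UTR of hht3+ on the same strand as hht3+. SPNCRNA.1194 (1620 bp, 1410745 to 1412364 of chromosome 3) covered all 399 coding bases of hta1+ on the other strand. Each of these RNAs also spanned the shared core of its locus, which therefore lay inside an annotated noncoding transcript. The only other overlap was that of SPNCRNA.1432 (797 bp, 1363471 to 1364267 of chromosome 2), which shared 79 bases with the end of the hhf2+ mRNA on the same strand and no coding base. No noncoding RNA overlapped the deposited mRNAs of hht1+, hht2+, hhf1+, hta2+, htb1+, or pht1+. These overlaps depended on the mRNA starts. In RefSeq, the htb1+ mRNA begins at 1412359, inside SPNCRNA.1194, and that of hht3+ begins at 3529565, outside SPNCRNA.1611. When noncoding genes counted as neighbors, hht3+ and htb1+ were no longer divergent, since SPNCRNA.1611 and SPNCRNA.1194 came next upstream of them on their own strand. The divergent neighbor of pht1+ was then SPBTRNATHR.06.

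The H3 genes encoded the same protein of 136 residues, initiator methionine included, and the H4 genes the same protein of 103 residues. Their coding sequences differed. Between H3 genes, 30 of 411 bases differed for hht1+ and hht3+ (92.7% identity), 46 for hht1+ and hht2+ (88.8%), and 48 for hht2+ and hht3+ (88.3%). Of these, 29, 44, and 45 lay at the last position of a codon, and 0 changed a residue. Between H4 genes, 21 of 312 bases differed for hhf1+ and hhf3+ (93.3%), 27 for hhf1+ and hhf2+, and 27 for hhf2+ and hhf3+ (91.3% each), and all of these lay at the last position of a codon. Genes 1 and 3 were thus the most alike in both families. As the proteins are the same, an antibody to H3K9me2 cannot tell which H3 gene supplied the histone. The H2A proteins of hta1+ (132 residues) and hta2+ (131 residues) had 129 residues in common, with the first difference at residue 121 counted from the methionine. Their coding sequences were 87.1% identical over the shorter. In the annotation, deletion of 9 of the histone genes was recorded as viable, that of htb1+, the only H2B gene, as inviable.

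The annotated start of pht1+ differed between the sources. In the deposited annotation its coding sequence ran from 1502642 to 1503157 of chromosome 2 on the minus strand and encoded 171 residues, and the entry carried a warning that the gene structure had been updated. In RefSeq the last coding base was the same, but the first lay 96 bases further downstream, at 1503061, which gives 420 bp and 139 residues, 32 fewer. The first coding bases of the other 9 genes were the same in both. From the RefSeq start, the 5′ UTR of pht1+ was 383 bp, and the protein shared 77 residues with that of hta1+ (58.3% of the shorter) and 78 with that of hta2+ (59.5%). In codon use, too, pht1+ differed from the core histone genes. Its lysine codons were AAG in 4 of 15 cases (26.7%), whereas the share was 60.0% in hta1+, 72.7% in hta2+, 82.4% in htb1+, and 63.6 to 81.8% in the H4 genes. The pht1+ count includes the residues added by the deposited start.

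Sequence shared between the histone genes could prevent a read from being placed, and it was limited to short stretches. The longest run of identical bases at the same place was 47 bp in the H3 genes (hht1+ and hht3+) and 54 bp in the H4 genes (hhf2+ and hhf3+). Of 3371 positions at which a 50-base sequence of the coding sequences begins, 10 (0.297%) began a sequence found again in the genome, 5 in hhf2+ and 5 in hhf3+, each with its copy in the other gene. With 36 bases, 158 of 3511 positions (4.50%) were repeated. These were 36 in hht1+, 18 each in hht2+ and hht3+, 10 in hhf1+, 31 each in hhf2+ and hhf3+, 7 each in hta1+ and hta2+, and 0 in htb1+ and pht1+, and every copy lay in another histone gene. With 100 bases there was none. Over whole loci, UTRs and the region between the genes included, 6 positions of 50 bases were repeated in pair 2, 6 in pair 3, and 0 at the other loci. In windows of 200 bp counted from the chromosome start, the window size of the study, at most 3% of positions were repeated at any histone gene, and no window reached 50%.

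The distance of the histone genes to annotated heterochromatin, taken as the centromere repeats, the mating type region of chromosome 2, and the chromosome ends, had a median of 274.8 kb, against 489.0 kb for all coding genes. The nearest was pht1+, 100.2 kb from the repeats of centromere 2. Next came hht2+ (237.9 kb) and hhf2+ (238.6 kb), on the same side of centromere 2, followed by hta2+ (263.0 kb from centromere 1), hta1+ (274.1 kb from centromere 3), and htb1+ (275.4 kb). The share of coding genes closer to such a region was 10.8% for pht1+ and 26.0 to 29.5% for these 5. The remaining H3–H4 pairs were nearest to a chromosome end, hht1+ and hhf1+ at 878.6 and 879.6 kb and hht3+ and hhf3+ at 1010.1 and 1009.4 kb, with 77.1 to 82.1% of coding genes closer. The gene cnp1+ (SPBC1105.17), which encodes the centromeric H3 variant, lay 8522 bases from the coding sequence of hhf3+ with 5 coding genes between them. Its protein shared 78 residues with H3, 65.0% of its length.

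TATAAA, the letters of a canonical TATA box, was found on the strand of the gene within 500 bases upstream of 6 of the 10 histone genes, and of 44.4% of all coding genes. The matches were before hht3+ (67 bases before the deposited mRNA start and 159 before that of RefSeq), hhf3+ (57 and 167 bases), and hta2+ (33 bases before the RefSeq start but inside the deposited 5′ UTR). In hhf1+, hta1+, and pht1+ they lay inside the 5′ UTR in both annotations. No match was found for hht1+, hht2+, hhf2+, or htb1+.

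The arrangement of the histone genes was set beside that of 20 genes for the supply and deposition of histones, of which 19 were found by name. They include transcription regulators, chaperones, the Swr1 complex, cnp1+, and clr4+. Of the 19, 10 had a divergent coding neighbor, against 54.9% of all coding genes, and 4 had more than 1 coding segment, against 46.6%. AACCCT was present upstream of 4, against 14.0%, and the 12-base tandem of 0. The 4 were cia1+ (the histone chaperone Asf1), pcf2+ (a CAF-1 subunit), and spt6+ (an H3–H4 chaperone of transcription elongation) with 1 match each, and clr4+ with 2. Their median coding length was 1539 bp, and the median UTR lengths were 189 bp at the 5′ end (17 genes with a UTR line) and 224.5 bp at the 3′ end (18 genes).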

How the data were processed

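ChIP-seq libraries of 2 swi6Δ samples were made by the authors. The deposited file is a genome annotation that lists where every feature begins and ends, with positions counted from 1, and has no unit of signal. The aligner was not given in the sources used here. The lengths of all 3 chromosomes were the same as in ASM294v3, and 5118 of 5123 coding genes (99.9%) had a whole reading frame on it, all 10 histone genes among them, so sequences were read from the NCBI RefSeq ASM294v3 genome. Genes with coding lines and no pseudogene entry were used. Upstream regions were up to 500 bases (alternatives 250, 1000, and the whole region) before the first coding base and ended at the next coding sequence. Repeated sequence was counted over nuclear and mitochondrial sequence on both strands, and a 200-bp window counted as repeated above 50% of its positions. Centromere repeats were extended through repeat features within 2000 bases. The sequence around 1 core is not reported here. Motif, repeat, and neighbor counts were tested on simulated sequence. The members and lists were chosen with earlier results of these data known, and the search for the tandem box and the comparison with RefSeq gene models were added after seeing the data. Named genes are the 10 histone genes, their next coding genes, overlapping noncoding RNAs, cnp1+, and those supply genes with an upstream box. SPAC631.02 and SPBTRNATHR.06 were added after their positions were seen. Python 3.11.15, Biopython 1.88, and matplotlib 3.10.9 were used.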

Additional observations from a re-analysis of the deposited data

How the results depend on the processing

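Because the file holds positions only, the results depend on the annotation rather than on depth, and no value carries a sampling error. The median gap of the 4 pairs was 383 bases between first coding bases, 72.5 between deposited mRNA starts, and 155.5 between RefSeq mRNA starts. The median 5′ UTR of the histone genes was 143 bp, and 111 bp with RefSeq starts. Both RefSeq medians include hhf3+, whose RefSeq mRNA begins at its first coding base. Over all coding genes, counting genes without a UTR line as 0 lowered the median 5′ UTR from 173 to 155 bp and the 3′ UTR from 262.5 to 245 bp. Coding genes with an intron numbered 519 by intron lines and 2389 by coding segments. Coding genes with the box numbered 719, and 432 with 250 bases, 1429 with the whole region, 36 with the longer form AACCCTAAC, and 18 with the tandem. The RefSeq and tandem settings were chosen after seeing the data. Repeated sequence in the coding sequences was 0.297% with 50 bases, 4.50% with 36, and 0.0% with 100. The median distance to heterochromatin was 274.8 kb, and 275.2 kb from the first coding base. The other 12 alternatives left the result equal or, for counts, within 1.5 times. Among them were 7 divergent histone genes in place of 9 with noncoding neighbors. Over all coding genes, that setting gave 2711 of 5123 divergent genes in place of 2813. The box within 250 bases was present before 7 histone genes in place of 9. No paired analysis was possible because the file has no values of single libraries.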
